A study of Homo sapiens with 9 samples.

Results

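Gene expression in MDA-MB231 cells that carry 1 of the hairpins against Coco, called shco4, was compared with that in cells that carry a scramble hairpin. The comparison takes the 3 arrays labelled with Coco hairpin number 4 and the 3 arrays labelled with the scramble hairpin, 6 of the 9 arrays in all, and every probe set that is not an array control. The remaining 3 arrays hold the line with the other Coco hairpin, shco2, whose values are given beside those of shco4 where they help. All 3 lines had been stably transduced with a pLKO lentivirus, so the controls carry the vector and a hairpin too, and all were grown in DMEM with 10% fetal bovine serum. MDA-MB231 is an established human triple-negative breast cancer line. The labels call the arrays of a line biological replicates and do not give how they were grown apart, so p-values measure the spread between these samples. Each hairpin was read in 1 stable line, and whether that line is a pool or a clone is not given. An effect of Coco, an effect of this hairpin on other transcripts and a property of the line therefore cannot be told apart.

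Coco, the product of DAND5, is a secreted protein that binds BMP, Nodal and activin ligands and keeps them from their receptors. Loss of such an antagonist leaves more ligand free to act through Smad proteins, which enter the nucleus and switch genes on or off. DAND5 has no probe set with 1 gene symbol on this array, so its own level was not analysed here. The arrays therefore give no check of the knockdown.

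The values are the linear intensities of the deposited table. Values under 16 were set to 16, the floor, before log2 was taken, and each difference below is the log2 level with shco4 minus that with scramble, with the standard error (SE) of a limma fit to all 9 arrays. A probe set is called at a Benjamini-Hochberg adjusted p under 0.05. Median intensity lay between 122 and 129 on the 9 arrays, and 22.1% to 24.6% of probe sets were at the floor. Across probe sets, which do not replicate one another, arrays correlated at a Pearson r of 0.988 to 0.991 among scramble arrays, 0.986 to 0.988 among shco4 arrays and 0.971 to 0.979 between the groups. Ratios of 3′ to 5′ probe sets, which watch RNA length, were 1.08 ± 0.0155 for ACTB with scramble and 1.13 ± 0.00857 with shco4, and 0.899 ± 0.0507 and 0.892 ± 0.0108 for GAPDH (SD, n = 3). With 3 arrays a group, the number of arrays limits the precision of every value.

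Of 22215 probe sets, 4178 (18.8%) were called, 2011 higher with shco4 (9.05%) and 2167 lower (9.75%). Without scramble replicate 2 the count of higher probe sets was 1246. At least 2-fold changes were rarer: 341 probe sets were that much higher (1.53%) and 609 that much lower (2.74%). Counted by gene, with the brightest probe set of each of 11963 genes, 2656 were called (22.2%), 1276 higher (10.7%) and 1380 lower (11.5%), of which 206 (1.72%) and 380 (3.18%) changed at least 2-fold. The median difference over all genes was 0. All 3 shco4 arrays lay above all 3 scramble arrays for 18.4% of genes and below them for 18%. For the line with shco2 against the same scramble arrays 13.3% of genes were higher and 11% lower (24.3% in all). Between the hairpins 16% of genes were higher with shco4 and 19.3% lower (35.4% in all). These shares are the background for every count of listed genes below.

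**Figure D1:**
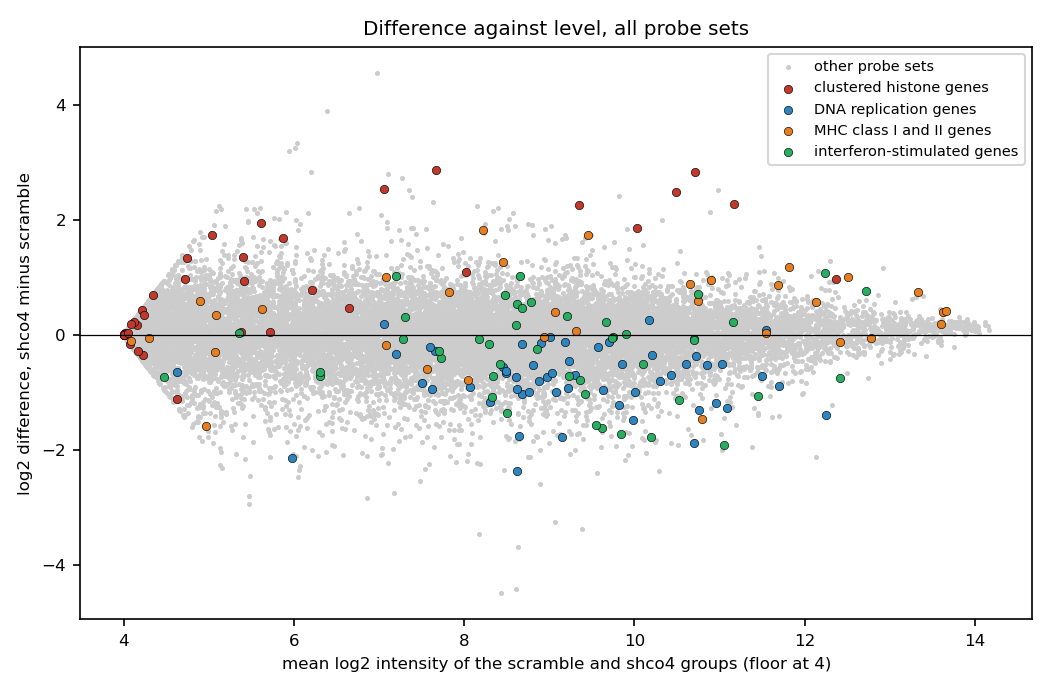
Each point is 1 of 22215 probe sets, with its mean log2 intensity over the scramble and shco4 groups on the horizontal axis and the log2 difference, shco4 minus scramble, on the vertical axis. Clustered histone genes (red) lie between -1.12 and 2.87, DNA replication genes (blue) lie mostly below 0 down to -2.37, and interferon-stimulated genes (green) and MHC genes (orange) spread to both sides. Points without colour beyond these include probe sets with no gene symbol.

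Genes for the core and linker histones that lie in clusters on chromosomes 1 and 6 were among the largest rises. These proteins package newly copied DNA, and most of their transcripts are made during S phase and end in a stem-loop in place of a poly(A) tail. Of 37 such genes measured, 15 rose (40.5%, against 10.7% of all genes) and 0 fell, with a median difference of 0.47. Without scramble replicate 2 there was 1 lower gene. H1-2, the linker histone H1.2, read 656, 562 and 675 on the scramble arrays and 5115, 4093 and 4233 on the shco4 arrays. The groups lay far apart, a rise of 2.83 ± 0.15 (adjusted p = 0.000266). For H4C8, a histone H4 gene, the intensities were 82.3, 80.2 and 63.7 with scramble and 644, 544 and 472 with shco4, which is 7.32-fold more (2.87 ± 0.15, adjusted p = 0.000266). H2BC21, a histone H2B gene on chromosome 1, went from 53.5, 66.5 and 48.2 to 350, 262 and 357 (2.53 ± 0.16, adjusted p = 0.000455). In all of these every shco4 array was above every scramble array.

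Histone H2B genes made up most of the rise: 8 of 11 measured were higher, with a median of 1.36. H2BC5 read 1020, 969 and 1160 with scramble and 5171, 4637 and 5344 with shco4 (2.27 ± 0.18, adjusted p = 0.000745), and its other probe set rose by 2.14. H2BC9 rose by 2.26 ± 0.19 and H2BC6 by 1.86 ± 0.22. H2BC17 and H2BC11 are dim genes, at no more than 28.1 on any scramble array, and rose by 1.95 ± 0.33 and 1.33 ± 0.19, calls that a floor of 64 in place of 16 ended. H2BC12 and H2BC3, chosen after their values were seen, differed by 0.97 ± 0.18 and 1.36 ± 0.34. The call of H2BC3 was lost without scramble replicate 3 or without any single shco4 array, at adjusted p = 0.0649 to 0.0986, and with a floor of 64 (0.13, adjusted p = 0.403).

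The other families moved less as groups. Among H2A genes 3 of 7 rose: H2AC6 read 514, 717 and 610 with scramble and 3280, 3446 and 3425 with shco4 (2.48 ± 0.33, adjusted p = 0.00413), H2AC17 rose by 1.68 ± 0.18 (0.71 with a floor of 64) and H2AC14 by 1.10 ± 0.13. Linker histones had 2 of 5 higher, H1-2 and H1-3 (1.74 ± 0.28, not called with a floor of 64). H3 and H4 genes had 1 of 7 each, H3C2 (0.77 ± 0.19, adjusted p = 0.033 and 0.0715 with replicate number as a blocking term, the replicate block) and H4C8. Leaving out any 1 of the 6 arrays also ended the call of H3C2. Of the 37 genes 19 lay above scramble on every shco4 array, against 18.4% of all genes. Most genes that did not pass were dim: 19 of these 22 stayed at or below 64 on all 6 arrays and 4 were at the floor on all of them. H3C6 was the only gene of the list with all shco4 arrays below all scramble arrays, at 40.3, 24.2 and 49.8 against 14.3, 4.93 and 18.4 (-1.12, adjusted p = 0.0618).

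Histone genes of 1 family are near-identical copies, and 8 of the 15 risers were read by probe sets of the kind that match several transcripts. Which copy changed is uncertain for these. A further 20 probe sets carry several symbols with a clustered histone among them, so no gene is named from them: 10 were higher and 1 lower, with a median of 1.0. One that is shared by 10 H3 genes read 31, 19.8 and 28.9 with scramble and 640, 542 and 657 with shco4 (4.55 ± 0.20, adjusted p = 0.000244). Another, shared by 6 H2A genes, went from 23.8, 16.2 and 26.6 to 319, 295 and 353 (3.89 ± 0.23, adjusted p = 0.000394). The single lower one is shared by 14 H4 genes and read 1547, 2530 and 3343 against 735, 931 and 1010 (-1.41 ± 0.38, adjusted p = 0.0477). A second probe set shared by 10 H3 genes was at the floor on all 6 arrays, so probe sets of 1 family did not all move.

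The array labelling starts from poly(A) tails, so it reads the part of histone RNA that carries a tail. More histone transcript and a larger tailed share cannot be told apart here. SLBP, which binds the stem-loop, read 2732, 3103 and 2771 with scramble and 2147, 2425 and 2629 with shco4 (-0.26 ± 0.08, adjusted p = 0.0766), and passed only without shco4 replicate 3 (adjusted p = 0.0418). NPAT, the activator of histone transcription in S phase, overlapped between the groups (-0.21 ± 0.14, adjusted p = 0.404). CASP8AP2, a partner of NPAT in histone gene expression, fell from 336, 361 and 347 to 185, 207 and 203 (-0.81 ± 0.07, adjusted p = 0.000941). The part of these genes in the histone values was not tested.

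**Figure D2:**
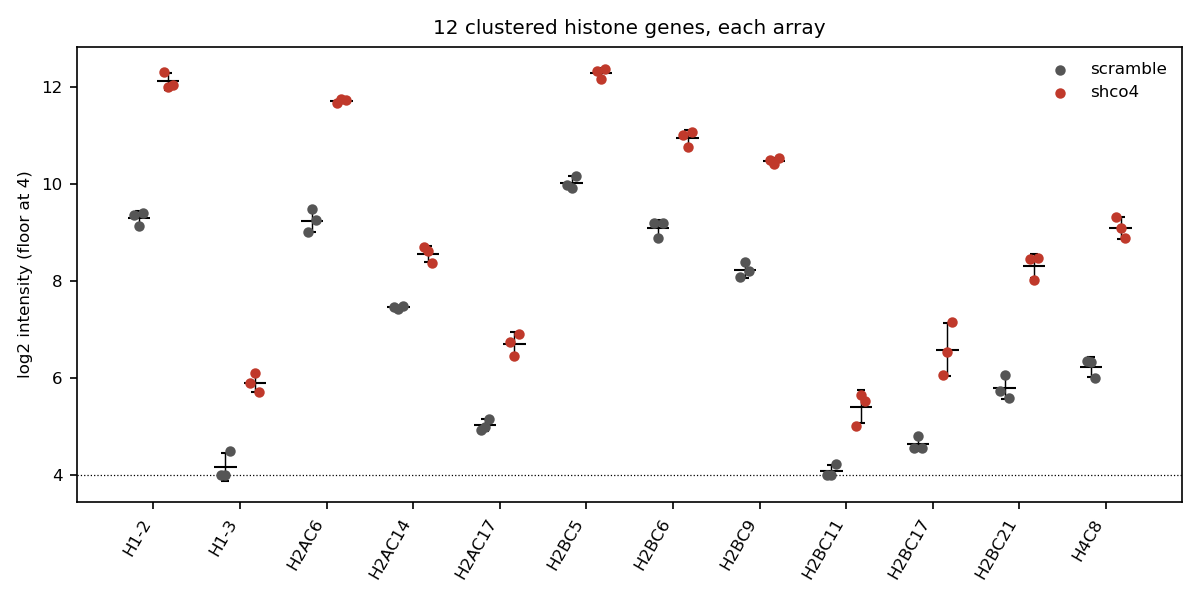
Log2 intensity (floor at 4, dotted) of 12 clustered histone genes on each scramble array (grey) and each shco4 array (red), with the group mean (line) and SD (bar, n = 3). All 12 genes have every shco4 array above every scramble array, and H2BC11 and H1-3 start at or near the floor.

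The shco2 line did not share the histone values. There 0 of the 37 genes were higher and 1 was lower, with a median of 0, and shco4 was above shco2 for 15 genes and below it for 0 by the test of that difference. H2BC21 was lower than scramble with shco2 (-0.90, adjusted p = 0.0104). H1-2 differed from scramble by -0.02 with shco2, and the difference between the hairpins was 2.85 (adjusted p = 8.34e-05). Both comparisons share the scramble arrays.

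Replacement histones and the chaperones that load histones were mostly lower or did not pass. Of 20 measured, 6 fell (30%) and 2 rose. CHAF1B, a subunit of the assembly factor that follows the replication fork, fell from 254, 247 and 245 to 120, 142 and 158 (-0.84 ± 0.10, adjusted p = 0.00258). NASP and RBBP7, which bind newly made histones, fell by 0.46 and 0.58 on the log2 scale. H2AX, the variant marked at DNA breaks, rose from 3515, 3834 and 3273 to 5418, 6554 and 6775 (0.82 ± 0.10, adjusted p = 0.00327). Of its other 3 probe sets 1 was called too, at 1.13, and the lowest was at -0.03. H2AJ was the other riser (1.47 ± 0.18), from near the floor and not called with a floor of 64.

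DNA replication genes went the other way. The genes fall into those that load and start the helicase at origins and those that copy DNA or supply nucleotides at the fork. Of 23 helicase loading and origin genes 12 fell (52.2%, against 11.5% of all genes) and 0 rose, with a median of -0.52. Among 33 fork and nucleotide supply genes 23 fell (69.7%) and 0 rose, with a median of -0.71. Without scramble replicate 2 the first count was 7, and without scramble replicate 1, without shco4 replicate 2 or with the replicate block 1 gene of that list was higher. Leaving out 1 array at a time gave 18 to 25 lower genes in the fork list. With shco2 6 and 9 genes of these lists were higher and 0 lower, and shco4 was below shco2 for 19 and 27 of them and above for 0.

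At origins, GINS1, a part of the active helicase, read 860, 938 and 896 with scramble and 119, 202 and 220 with shco4. The groups were 5.16-fold apart (-2.37 ± 0.22, adjusted p = 0.00131). ORC1, the subunit of the origin complex that comes and goes with the cycle, read 133, 141 and 124 against 25.2, 38.7 and 28.2 (-2.13 ± 0.19, adjusted p = 0.00109, and -1.05 with a floor of 64). CDC6, which brings the MCM ring to ORC, had 2 probe sets, at -2.12 ± 0.20 and -1.77 ± 0.14. MCM3 fell from 3434, 3582 and 3149 to 1141, 1752 and 1393 (-1.27 ± 0.15, adjusted p = 0.00288), and MCM6 (-1.31) and CDC45 (-1.17) fell as well. Other ring subunits were chosen after their values were seen. Of these MCM5 fell (-0.96 ± 0.16, adjusted p = 0.00948), while MCM4 (-0.50, adjusted p = 0.0697) did not pass without a block and did with it (adjusted p = 0.0103), and MCM7 had the groups apart and did not pass (-0.52, adjusted p = 0.0967). ORC2, a constant subunit, overlapped between the groups (-0.14, adjusted p = 0.648).

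At the fork, RFC4, a loader of the sliding clamp, read 1646, 1794 and 1645 with scramble and 495, 683 and 667 with shco4 (-1.48 ± 0.12, adjusted p = 0.000941). POLD1, the catalytic subunit of polymerase delta, fell from 878, 728 and 632 to 210, 243 and 204 (-1.76 ± 0.15, adjusted p = 0.000945). PCNA, the clamp itself, chosen after its values were seen, read 2937, 3524 and 3128 against 579, 1116 and 1011 (-1.88 ± 0.24, adjusted p = 0.00378). On the shco4 side replicate 1 was the lowest of the 3 for each of GINS1, PCNA and RFC4. RFC5, DNA2 and LIG1, which joins the fragments of the lagging strand, fell by 0.93, 0.94 and 0.99 on the log2 scale. Nucleotide supply, also chosen after its values were seen, included TYMS (-1.39 ± 0.21), TK1 (-1.22 ± 0.20) and RRM1 (-1.18 ± 0.16), all with the groups apart. UNG, which removes uracil from DNA, had close replicates: 1711, 1606 and 1685 against 946, 980 and 954 (-0.80 ± 0.03, adjusted p = 0.000164).

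Recombination and mismatch repair genes were lower in 10 of 20 (50%), higher in 0 (1 with the replicate block), with a median of -0.64. FANCG, of the crosslink repair complex, read 886, 921 and 939 against 424, 494 and 497 (-0.96 ± 0.10, adjusted p = 0.00167). FANCI fell by 1.02 on the log2 scale, RAD54B by 0.83, CHEK1, the checkpoint kinase of stalled forks, by 0.75, PALB2 by 0.66 and MSH6 by 0.65. Here too shco4 lay below shco2, for 17 of the 20.

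The promoters of replication and histone genes are shown because these groups changed in opposite directions. Sequences are RefSeq promoters on GRCh38.p14, from 250 bases before to 50 after the start, written 5′ to 3′ on the gene's strand. Capitals mark the motifs searched on both strands, which are TTTCCCGC and TTTGGCGC, forms bound by E2F factors, and CCAAT. ORC1, which fell by 2.13 on the log2 scale, is shown with the replication genes and holds neither of the E2F forms searched. Other forms that E2F factors bind were not searched, so the marks and the counts below leave them out. No motif overlapped another in these sequences.

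GINS1, chr20:25407423-25407722, plus strand: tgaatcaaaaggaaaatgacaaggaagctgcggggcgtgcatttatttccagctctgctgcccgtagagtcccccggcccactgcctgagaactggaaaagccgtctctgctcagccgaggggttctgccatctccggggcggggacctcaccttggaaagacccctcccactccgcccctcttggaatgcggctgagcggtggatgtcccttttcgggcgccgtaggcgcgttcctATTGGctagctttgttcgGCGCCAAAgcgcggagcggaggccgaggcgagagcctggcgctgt
CDC6, chr17:40287629-40287928, plus strand: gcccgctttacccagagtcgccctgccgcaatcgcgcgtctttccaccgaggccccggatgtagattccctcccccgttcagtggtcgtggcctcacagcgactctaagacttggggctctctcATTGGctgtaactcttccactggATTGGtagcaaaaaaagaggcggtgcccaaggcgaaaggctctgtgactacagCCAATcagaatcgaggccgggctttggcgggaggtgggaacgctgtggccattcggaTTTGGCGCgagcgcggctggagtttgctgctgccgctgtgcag
ORC1, chr1:52404374-52404673, minus strand: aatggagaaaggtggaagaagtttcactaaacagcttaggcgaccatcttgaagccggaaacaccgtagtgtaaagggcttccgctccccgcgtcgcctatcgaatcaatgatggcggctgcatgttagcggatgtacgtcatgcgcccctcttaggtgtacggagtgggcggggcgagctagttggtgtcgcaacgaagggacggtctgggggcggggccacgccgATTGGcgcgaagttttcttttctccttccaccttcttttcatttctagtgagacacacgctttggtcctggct
PCNA, chr20:5126573-5126872, minus strand: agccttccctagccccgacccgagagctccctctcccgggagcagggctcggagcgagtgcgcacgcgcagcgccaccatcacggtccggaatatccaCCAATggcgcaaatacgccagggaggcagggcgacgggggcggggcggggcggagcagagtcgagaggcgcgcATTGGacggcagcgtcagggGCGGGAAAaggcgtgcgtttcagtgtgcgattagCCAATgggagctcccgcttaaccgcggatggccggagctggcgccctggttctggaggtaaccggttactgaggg
H1-2, chr6:26056421-26056720, minus strand: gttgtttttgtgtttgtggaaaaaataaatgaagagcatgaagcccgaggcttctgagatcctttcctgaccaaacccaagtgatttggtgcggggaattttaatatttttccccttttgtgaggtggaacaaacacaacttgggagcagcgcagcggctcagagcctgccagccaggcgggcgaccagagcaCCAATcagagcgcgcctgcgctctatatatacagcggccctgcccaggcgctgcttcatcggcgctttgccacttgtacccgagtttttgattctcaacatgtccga
H2BC21, chr1:149886633-149886932, minus strand: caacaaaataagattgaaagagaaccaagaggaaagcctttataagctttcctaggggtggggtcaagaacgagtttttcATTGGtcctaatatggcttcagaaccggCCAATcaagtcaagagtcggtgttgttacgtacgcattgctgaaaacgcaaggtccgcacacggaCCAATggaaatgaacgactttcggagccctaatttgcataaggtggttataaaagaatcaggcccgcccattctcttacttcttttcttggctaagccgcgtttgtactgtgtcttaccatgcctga
H4C8, chr6:26285485-26285784, minus strand: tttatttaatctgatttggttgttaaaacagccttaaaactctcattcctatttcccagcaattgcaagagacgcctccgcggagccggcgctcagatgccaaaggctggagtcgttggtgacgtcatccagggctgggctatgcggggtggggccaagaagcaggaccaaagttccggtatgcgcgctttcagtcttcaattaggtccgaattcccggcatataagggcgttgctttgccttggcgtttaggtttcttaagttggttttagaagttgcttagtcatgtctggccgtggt

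Either E2F motif was present in 11 of 31 matched promoters of the replication genes that fell (35.5%) and in 7 of 18 of those that did not pass (38.9%), against 2.31% of all 27305 promoters in the table and 3.33% of those of measured genes. Of the genes listed, 31 of 35 and 18 of 21 had a promoter in the table. Histone promoters held neither E2F motif searched, in the 15 that rose or in the 20 of 22 that did not pass. CCAAT was in 14 of the 15 (93.3%) and in 17 of the 20 (85%), against 35.7% of all promoters. The E2F motifs taken singly differed more: TTTGGCGC was in 19.4% of the replication promoters that fell and 5.56% of those that did not pass, and TTTCCCGC in 16.1% and 33.3%. In the same sets CCAAT was in 19 of 31 (61.3%) and 7 of 18 (38.9%). H4C8, with one of the largest rises, has none of these motifs in its window.

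Among genes that govern entry into S phase, 11 of 29 fell (37.9%) and 2 rose, with a median of -0.31. Without scramble replicate 1 the count of lower genes was 7. SKP2, which marks the inhibitor p27 for destruction, read 1028, 1043 and 1035 with scramble and 369, 418 and 430 with shco4 (-1.35 ± 0.06, adjusted p = 0.000248). CDKN1B, which encodes p27, rose from 868, 931 and 807 to 2017, 1875 and 1885 (1.15 ± 0.14, adjusted p = 0.0032). CDKN1C, which encodes the related inhibitor p57, read 122, 97.8 and 185 against 641, 621 and 587 at the probe set with the largest change (2.24 ± 0.26, adjusted p = 0.00254), and 3 of its other 4 probe sets were called higher. CDKN1A, which encodes p21, fell instead, from 979, 907 and 964 to 616, 646 and 495 (-0.71 ± 0.11, adjusted p = 0.00721). The inhibitors thus did not move as 1 group.

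Cyclin E and its kinase were lower. CCNE2 read 496, 695 and 855 with scramble and 157, 220 and 217 with shco4 (-1.77 ± 0.24, adjusted p = 0.00443), CCNE1 367, 314 and 404 against 128, 138 and 181 (-1.29 ± 0.15, adjusted p = 0.00243), and CDK2 fell by 0.99 on the log2 scale. CDK4 fell by 0.38. CCND1, the cyclin of early G1, had the groups apart and did not pass (-0.55 ± 0.17, adjusted p = 0.0709), but did without shco4 replicate 3 (adjusted p = 0.0245) and with dim probe sets left out (adjusted p = 0.0284). MYC read 2250, 2088 and 2293 against 1218, 1632 and 1756 and did not pass either (-0.54 ± 0.16, adjusted p = 0.0631), but did with dim probe sets left out (adjusted p = 0.0258) and on log2 of the value plus 16 (adjusted p = 0.0474). E2F8, a repressing E2F chosen after its values were seen, fell by 1.56, and RB1 overlapped between the groups (-0.21, adjusted p = 0.479).

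Mitotic genes fell less clearly. Of 53 measured 12 passed as lower (22.6%) and 0 as higher (1 with the replicate block), with a median of -0.38. The count was 3, 2 and 4 without scramble replicate 1, 2 and 3, and 8 to 12 without single shco4 arrays. The list's median against scramble was -0.71 on shco4 replicate 1 and -0.24 and -0.13 on the other two. KIF20B, a mitotic kinesin, fell from 1239, 1213 and 1157 to 720, 722 and 778 (-0.70 ± 0.08, adjusted p = 0.00247). NCAPH, a condensin subunit, read 936, 1122 and 856 against 264, 467 and 483 (-1.30 ± 0.24, adjusted p = 0.0129). MKI67, a widely used proliferation marker, fell from 1998, 2079 and 1941 to 921, 1332 and 1529 (-0.70 ± 0.17, adjusted p = 0.0348), a call lost with the replicate block (adjusted p = 0.0565) and without any scramble array or shco4 replicate 2. CDK1 and CCNB1, the kinase and cyclin that start mitosis, overlapped between the groups (-0.15, adjusted p = 0.566, and -0.32, adjusted p = 0.174), as did AURKA and PLK1. In a bulk sample, fewer cells in a phase and less RNA per cell cannot be told apart.

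**Figure D3:**
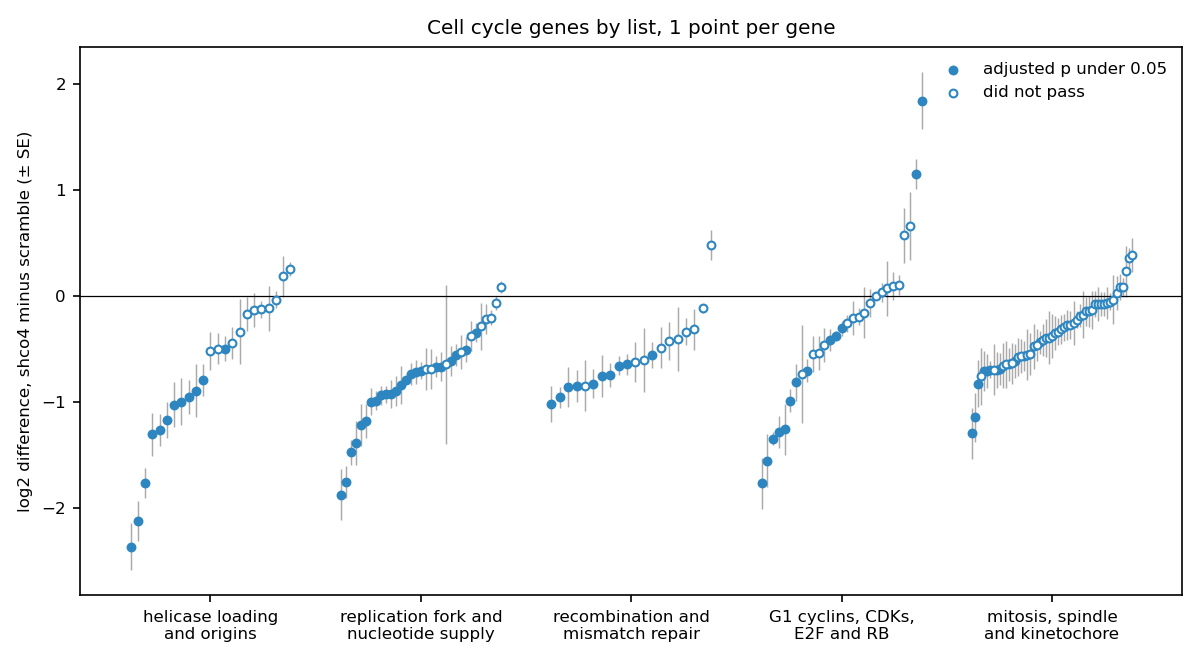
Each point is 1 gene of 5 cell cycle lists, sorted by its log2 difference, shco4 minus scramble, with bars for the SE. Filled points passed at an adjusted p under 0.05. Fork genes lie between -1.88 and 0.08 and helicase genes between -2.37 and 0.25, while mitotic genes lie between -1.30 and 0.38 and most are open.

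Interferon-stimulated genes split into a lower and a higher group. Of 44 measured, 15 fell (34.1%, against 11.5% of all genes) and 8 rose (18.2%, against 10.7%), with a median of -0.20. Leaving out 1 array gave 14 to 15 lower and 5 to 6 higher, with 5 higher without scramble replicate 1. The fit to the 6 arrays of scramble and shco4 alone gave 14 lower and 4 higher. IFIT2, which binds viral RNA, read 2408, 2260 and 1894 with scramble and 581, 632 and 695 with shco4 (-1.78 ± 0.10, adjusted p = 0.000299). IFI44 fell from 1417, 1341 and 1366 to 430, 399 and 531 (-1.61 ± 0.11, adjusted p = 0.000575). HERC6 fell by 1.36 on the log2 scale, ISG20, an RNA exonuclease, by 1.08, PARP12 by 1.02 and RIGI, the sensor of viral RNA, by 0.78. IFIT3 and OASL, chosen after their values were seen, fell by 1.91 and 1.73. All of these had every shco4 array below every scramble array.

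The higher group held other interferon-stimulated genes. IRF7, the factor that amplifies interferon production, rose from 292, 277 and 282 to 716, 544 and 491 (1.02 ± 0.13, adjusted p = 0.00345). IFITM2 and IFITM3, membrane proteins that hinder virus entry, were chosen after their values were seen and read 3442, 3232 and 3384 against 7681, 7064 and 6402, and 5604, 4903 and 5120 against 10017, 8713 and 7897. They rose by 1.07 ± 0.12 and 0.76 ± 0.09. MX1 rose by 0.70 ± 0.09, from 273, 263 and 309 to 496, 419 and 453. Between the hairpins IFIT2 was 2.06 lower and IFITM2 1.83 higher with shco4 than with shco2, both by the test of that difference.

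Genes of MHC class I and peptide loading, which show peptides from inside the cell to CD8 T cells, were higher in 8 of 19 (42.1%) and lower in 1, with a median of 0.19. The higher count was 4, 5 and 5 without scramble replicate 2, scramble replicate 3 and shco4 replicate 1, and with the replicate block 2 were lower. Subunits of the immunoproteasome and its activator, which cut the peptides, were among those that rose. PSME1 read 2484, 2426 and 2440 with scramble and 4731, 4326 and 4345 with shco4 (0.87 ± 0.04, adjusted p = 0.000248). PSMB9 rose from 1232, 1062 and 1253 to 2508, 2003 and 2074 (0.89 ± 0.10, adjusted p = 0.0027) and PSMB8 from 1413, 1344 and 1377 to 3426, 2351 and 2331 (0.95 ± 0.16, adjusted p = 0.0083). The ranges of the groups did not touch in any of these.

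Among the heavy chains HLA-E rose by 0.57 ± 0.09, from 3954, 3556 and 3539 to 6171, 5402 and 4867. HLA-F read 4321, 3588 and 4462 against 10499, 8250 and 6474 (1.01 ± 0.20, adjusted p = 0.0158), a call lost without scramble replicate 2 (adjusted p = 0.0553). Probe sets of heavy chains can match more than 1 HLA gene, so the gene is uncertain. B2M, the shared light chain, differed by 0.19 ± 0.07 at its brighter probe set (adjusted p = 0.116, and 0.0182 with the replicate block) and by 0.20 at the other, which was called. TAPBP, which holds class I at the peptide transporter, was the lower gene, from 3217, 2818 and 2831 to 1081, 1110 and 1015 (-1.47 ± 0.08, adjusted p = 0.000329), but its other probe set was higher by 1.02 (adjusted p = 0.0499). Direction for TAPBP is therefore unsettled.

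MHC class II genes are usually made by antigen-presenting cells and show peptides to CD4 T cells. CD74, the invariant chain, read 2211, 2542 and 2482 with scramble and 6371, 5332 and 4701 with shco4 (1.17 ± 0.11, adjusted p = 0.00139). HLA-DRB1 rose from 275, 411 and 502 to 1484, 1469 and 958 (1.73 ± 0.34, adjusted p = 0.0165), HLA-DPA1 from 111, 182 and 199 to 504, 744 and 475 (1.82 ± 0.38, adjusted p = 0.0208) and HLA-DPB1 by 1.01 ± 0.21 (adjusted p = 0.0211). These were the 4 of 14 that rose (28.6%), and the median was 0.52. Calls were lost without single arrays: HLA-DRB1 without shco4 replicate 1 or 2, and both DP genes also without scramble replicate 1 or 2, at adjusted p = 0.0517 to 0.0657. The count of higher genes fell to 2 without scramble replicate 1 or 2 and to 1 without shco4 replicate 1 or 2. HLA-DOB was the lower gene, at 50.8, 60.5 and 52 against 23.1, 15.2 and 10.7 (-1.58 ± 0.17, adjusted p = 0.00219, and not called with a floor of 64), and 2 were lower without shco4 replicate 1. CIITA, the master activator of class II, was dim and overlapped (0.34 ± 0.59, adjusted p = 0.826).

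**Figure D4:**
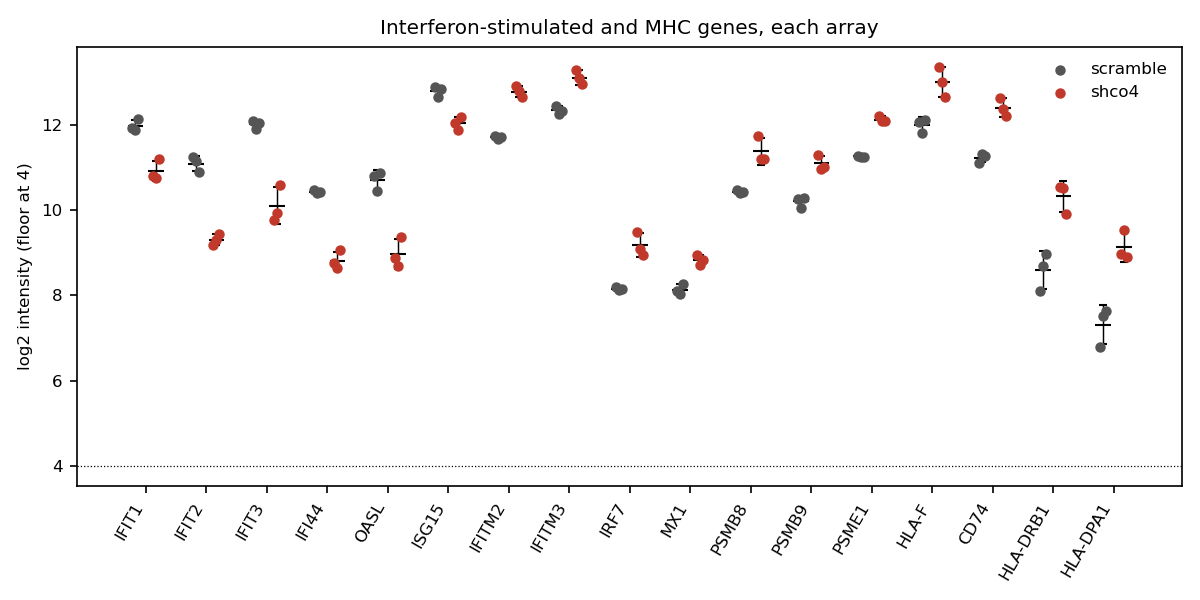
Log2 intensity (floor at 4, dotted) of 17 interferon-stimulated and MHC genes on each scramble array (grey) and each shco4 array (red), with the group mean (line) and SD (bar, n = 3). IFIT1 to ISG15 are lower with shco4, and IFITM2 to HLA-DPA1 are higher.

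Cytokine genes showed no shift as a list: 4 of 45 interleukins, chemokines and receptors rose (8.89%) and 4 fell, with a median of 0. The higher count was 2 without scramble replicate 2, and the lower count 2 without scramble replicate 1 or shco4 replicate 1. IFNGR1, the interferon gamma receptor, rose from 700, 737 and 723 to 1600, 1410 and 1327 (1.0 ± 0.08, adjusted p = 0.000945), and IL1R1, the interleukin 1 receptor, from 291, 266 and 321 to 920, 634 and 528 (1.21 ± 0.22, adjusted p = 0.0116). IL4R fell by 0.86 and IL15RA by 0.45 on the log2 scale. IL11 fell from 632, 911 and 404 to 72.5, 271 and 113 (-2.23 ± 0.53, adjusted p = 0.0315), and its other probe set, at -1.62, was not called. The IL11 call was lost with the 6 arrays alone (adjusted p = 0.0908) and without scramble replicate 1 or 2 or shco4 replicate 1 or 3. CXCL8 and IL6, chosen after their values were seen, overlapped between the groups (-0.71, adjusted p = 0.268, and -0.26, adjusted p = 0.326).

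Of 24 NF-kB subunits, inhibitors and targets 7 rose (29.2%) and 3 fell. The count of higher genes was 4 without scramble replicate 1 or 3 or shco4 replicate 1 or 2. TNFAIP2 rose from 1248, 1333 and 1423 to 2817, 2769 and 2286 (0.97 ± 0.10, adjusted p = 0.00175), and NFKB1, a subunit of the factor, from 487, 505 and 479 to 715, 760 and 710 (0.57 ± 0.06, adjusted p = 0.00162). CD40, a receptor that drives the pathway, fell from 609, 616 and 611 to 254, 302 and 294 (-1.11 ± 0.06, adjusted p = 0.000299). TNIP1, an inhibitor, fell by 0.82. CFLAR, a brake on death receptor signals, fell by 0.75 at its brightest probe set, and of 10 others 1 was called lower and 1 higher. Receptor, subunit and targets thus did not move together.

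Further genes with large rises had other functions. LUM, which encodes the matrix proteoglycan lumican, read 18.2, 19.1 and 25 with scramble and 296, 239 and 128 with shco4, 10.1-fold more (3.34 ± 0.31, adjusted p = 0.0012). The scramble arrays were near the floor, and with a floor of 64 the difference was 1.70. PDE9A, a cyclic GMP phosphodiesterase, rose from 24.6, 27.3 and 30.9 to 266, 214 and 132 (2.83 ± 0.43, adjusted p = 0.00638, and 1.61 with a floor of 64), and SLC47A1, a drug and toxin exporter, from 59.3, 71 and 76.2 to 529, 290 and 387 (2.51 ± 0.24, adjusted p = 0.00131). MFNG, a fringe enzyme that modifies Notch receptors, rose by 2.80 ± 0.33 at 1 probe set and 1.96 at a second, with the third at -0.25. FSCN1, which bundles actin in cell protrusions, rose from 132, 232 and 126 to 934, 787 and 523 (2.21 ± 0.32, adjusted p = 0.00528). NPR3, a natriuretic peptide receptor, rose by 2.20 ± 0.22. PDK4, which holds back pyruvate oxidation, was chosen after its values were seen, with 1 scramble array at the floor, and read 8.2, 24.9 and 20.8 against 399, 193 and 83.2 (3.20 ± 0.55, adjusted p = 0.00993, not called with a floor of 64). Replicate 3 was the lowest shco4 array for LUM, PDE9A and PDK4.

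Some genes were listed at or below the floor on all 3 arrays of 1 group, so their change is a bound. CLIP3 was at least 4.70-fold higher with shco4, from 10, 9 and 12.9 to 82.1, 65.5 and 79.2 (adjusted p = 0.000164), MMP15, a membrane-bound metalloproteinase, at least 3.12-fold higher and CLEC4A at least 2.57-fold higher. In the other direction PLTP, which transfers phospholipid between lipoproteins, was at least 4.80-fold lower, from 97.3, 77.6 and 60 to 10.2, 8.05 and 2.59 (adjusted p = 0.00114), and TFR2 at least 2.51-fold lower. The calls of these 5 genes were lost with a floor of 64 in place of 16, and none exceeded 97.3 on an array. GGT5, a gamma-glutamyltransferase, was at least 7.69-fold lower, from 150, 130 and 96 to 3.83, 3.75 and 3.97 (adjusted p = 0.000248). Its call held under every alternative run, with a difference of -0.94 at a floor of 64, and it was at the floor with shco2 too (-2.94).

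The largest falls went to genes of unlike function. NUP43, a subunit of the nuclear pore, read 1378, 1344 and 1567 with scramble and 75.6, 125 and 145 with shco4, 12.8-fold less (-3.68 ± 0.24, adjusted p = 0.000457). TMED10, a cargo receptor of the early secretory pathway, fell from 2497, 3109 and 2945 to 507, 582 and 566 (-2.37 ± 0.12, adjusted p = 0.000248), but its second probe set differed by -0.07 (adjusted p = 0.698). TSPAN31, a tetraspanin, read 427, 388 and 490 against 84.7, 67.7 and 71.4 (-2.54 ± 0.13, adjusted p = 0.000253), and its other probe set fell by 1.56. PNMA8A fell by 2.35 ± 0.13, from 832, 789 and 773 to 130, 191 and 156. MYL9, a myosin light chain of contractile fibres, fell by 2.17 ± 0.20 and RHOF, a small GTPase of filopodia, by 2.21 ± 0.19. ALDH6A1, a mitochondrial dehydrogenase of valine breakdown, fell by 2.75 at 1 probe set and 0.70 at a second, and 3 others were not called.

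CEMIP, which takes part in hyaluronan breakdown, fell from 2624, 1901 and 1973 to 225, 213 and 187 (-3.37 ± 0.15, adjusted p = 0.000248), and the collagen gene COL6A3 from 528, 384 and 362 to 90.7, 88.3 and 72.2 (-2.33 ± 0.17, adjusted p = 0.000626). With shco2 CEMIP and COL6A3 were lower than scramble by similar or larger amounts (-3.38 and -3.12), and ALDH6A1 was lower too (-1.49, adjusted p = 0.00367). Other falls had no counterpart there: NUP43, TMED10, TSPAN31, PNMA8A and MYL9 differed from scramble by -0.02 to 0.05 with shco2. The difference between the hairpins was -3.73 for NUP43 (adjusted p = 0.000139) and -2.35 for TMED10 (adjusted p = 6.62e-05). Probe sets without a gene symbol fell as far, and they stay unnamed here. Probe set 212335_at read 1562, 1541 and 1806 with scramble and 74.7, 64.8 and 79.7 with shco4 (-4.49 ± 0.12, adjusted p = 7.08e-05), and 212334_at fell by 4.42 ± 0.23. With shco2 these differed from scramble by -0.08 and -0.37. Which of these transcripts pairs with the hairpin was not tested, since the hairpin sequence was not used here.

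Genes of the hypoxia response and glycolysis were lower in 16 of 35 (45.7%) and higher in 0, with a median of -0.34. PFKFB3, which speeds glycolysis, read 701, 666 and 711 with scramble and 309, 316 and 361 with shco4 (-1.08 ± 0.09, adjusted p = 0.000945). HK1, a hexokinase, fell from 2786, 3148 and 2702 to 1193, 1587 and 1419 (-1.05 ± 0.12, adjusted p = 0.00245), ENO2 by 1.0 on the log2 scale, the collagen lysyl hydroxylases PLOD1 and PLOD2 by 0.99 and 1.06, and BNIP3, a mitophagy receptor, by 1.02. Without shco4 replicate 1 the list had 1 higher gene. EPAS1, which encodes HIF-2alpha and was chosen after its values were seen, read 1282, 1533 and 1493 against 620, 758 and 737 (-1.03 ± 0.14, adjusted p = 0.00453). With shco2 20 genes of this list were lower, and shco4 lay above shco2 for 12 and below it for 11.

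Oxidative phosphorylation genes shifted a little upward: 13 of 44 were higher (29.5%) and 2 lower, with a median of 0.15. The rises were small and the count fell to 7 or 8 without scramble replicate 1, 2 or 3 or shco4 replicate 1 or 3. It was also 8 with dim probe sets left out and 5 on log2 of the value plus 16. NDUFB5, a complex I subunit, rose from 2535, 2389 and 2530 to 3691, 3599 and 3524 (0.54 ± 0.05, adjusted p = 0.000945), and CYC1, of complex III, by 0.36 ± 0.04. The 2 lower genes changed more. NDUFC1, also of complex I, fell from 3017, 2654 and 2711 to 841, 904 and 950 (-1.64 ± 0.07, adjusted p = 0.000192), and COX8A, of complex IV, from 8110, 7491 and 7903 to 2815, 3892 and 3486 (-1.22 ± 0.11, adjusted p = 0.00124). With the replicate block 4 were lower.

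Sterol synthesis and uptake genes were higher in 8 of 26 (30.8%) and lower in 2, with a median of 0.32. The higher count was 5 without scramble replicate 1 or 2 or shco4 replicate 3, and the lower count 0 without scramble replicate 1, 1 without scramble replicate 2 or shco4 replicate 1, and 5 with the replicate block. SREBF2, the factor that switches these genes on, rose from 382, 298 and 379 to 860, 853 and 750 (1.22 ± 0.13, adjusted p = 0.00209). The enzymes NSDHL, MVK and IDI1 rose by 0.89 ± 0.09, 0.72 ± 0.13 and 0.64 ± 0.09. INSIG2, which holds the factor in the endoplasmic reticulum, read 913, 779 and 975 against 598, 523 and 567 (-0.66 ± 0.13, adjusted p = 0.0146, lost without scramble replicate 1 at 0.0509). With shco2 11 genes of the list were lower and 1 higher, and shco4 was above shco2 for 18 of the 26.

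Targets of ATF4, the factor of the amino acid response, and tRNA synthetases were lower in 14 of 35 (40%) and higher in 0, with a median of -0.23. The count was 7, 9 and 9 without scramble replicate 1, 2 and 3, and 1 gene was higher without shco4 replicate 3. SHMT2, of mitochondrial serine use, fell from 2591, 2505 and 2286 to 1141, 1383 and 1531 (-0.87 ± 0.11, adjusted p = 0.00329). PSAT1, of serine synthesis, fell by 1.08 ± 0.19, ASNS, of asparagine synthesis, by 0.72 ± 0.10, and the synthetases GARS1 and AARS1 by 0.52 and 0.45 on the log2 scale.

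Lysosomal genes moved both ways, 13 of 43 higher (30.2%) and 8 lower (18.6%), with a median of 0.22. The higher count was 6 to 8 without any 1 scramble array or without shco4 replicate 1 or 2, and the lower count 5 without scramble replicate 2 or shco4 replicate 2. PSAP, the precursor of the saposins that help digest sphingolipids, read 7513, 6907 and 6712 with scramble and 11097, 10223 and 10006 with shco4 (0.57 ± 0.06, adjusted p = 0.00215), and LAMP1, of the lysosomal membrane, rose by 0.40 ± 0.05. CTSO, a cathepsin, rose from 168, 203 and 181 to 1080, 719 and 643 (2.11 ± 0.26, adjusted p = 0.0033). SGSH, which removes sulfate from heparan sulfate, fell from 521, 552 and 606 to 215, 253 and 272 (-1.18 ± 0.11, adjusted p = 0.00123). ARSB, another sulfatase, read 64.7, 70.1 and 45.6 against 17.3, 13.2 and 18.3 (-1.78 ± 0.18, adjusted p = 0.0016, not called with a floor of 64), and GM2A, the activator of ganglioside breakdown, fell by 1.11 ± 0.14.

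In the pathway that Coco blocks, ligands, receptors and antagonists of BMP, activin and Nodal were higher in 5 of 35 (14.3%) and lower in 4 (11.4%), with a median of 0.12. These shares are near the background. The higher count was 2 without scramble replicate 1 or 2 or shco4 replicate 3 and 3 without shco4 replicate 2, and the lower count 2 without scramble replicate 1 or 2. INHBB, a subunit of activin B, rose from 134, 176 and 160 to 492, 684 and 621 (1.93 ± 0.15, adjusted p = 0.000682). FSTL1, a secreted follistatin-like protein, fell from 5938, 5504 and 4400 to 1239, 1445 and 1400 (-1.95 ± 0.12, adjusted p = 0.000394), and GDF11 from 91.3, 101 and 110 to 45.5, 48.9 and 39.7 (-1.17 ± 0.16, adjusted p = 0.00419), although its other 2 probe sets differed by 0. BMP4 overlapped at 2893, 2527 and 2538 against 3244, 3004 and 2828 (0.19 ± 0.11, adjusted p = 0.304), and NODAL, BMP7 and INHBA were dim and overlapped (adjusted p = 0.812 to 1).

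Read-outs of Smad signalling did not share a direction, and of ID1, ID2, SMAD6 and SMAD7 only SMAD6 was called in the main fit. ID1, a direct BMP target, read 5742, 4762 and 3101 with scramble and 3491, 2898 and 2094 with shco4, so replicate numbers moved together. Its difference was -0.67 ± 0.31 (adjusted p = 0.206, and 0.0314 with the replicate block). ID2 lay above scramble on every array (1.07 ± 0.41) and did not pass (adjusted p = 0.133), but did with dim probe sets left out (adjusted p = 0.0441). ID3 overlapped. SMAD7, the feedback inhibitor, read 259, 287 and 211 against 441, 432 and 374 (0.73 ± 0.21, adjusted p = 0.0555). It passed with the block (adjusted p = 0.0195), with dim probe sets left out (0.0173) and on log2 of the value plus 16 (0.0315). Median centring (0.0399), the 6 arrays alone (0.0428) and quantile normalization (0.047) gave a call too. SMAD6, the BMP-side inhibitor, rose by 0.93 ± 0.19 (adjusted p = 0.0191), a call lost without scramble replicate 2 or shco4 replicate 1. Of 26 TGF-beta ligands, receptors and Smads 3 rose (11.5%), 6 with the block, and 2 fell (7.69%). The lower count was 1 without any single scramble array or without shco4 replicate 2 or 3. TGFBR2 differed by -0.16 ± 0.09 (adjusted p = 0.282).

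Matrix and adhesion genes stayed near the background by count. Of 52 collagens, laminins and matrix glycoproteins 3 rose, 5 with the block, and 6 fell. The lower count was 2 without scramble replicate 1 or 2 and 3 without scramble replicate 3 or shco4 replicate 2. FBN1, which encodes the microfibril protein fibrillin, fell from 478, 504 and 447 to 118, 162 and 107 (-1.90 ± 0.18, adjusted p = 0.00123), and AGRN, the basement membrane proteoglycan agrin, rose from 2602, 2692 and 2539 to 4753, 3677 and 4138 (0.67 ± 0.09, adjusted p = 0.00414). With shco2 22 genes of this list were lower and 0 higher, and shco4 was above shco2 for 20 and below it for 3. Of 30 integrin and focal adhesion genes 3 rose and 5 fell: FERMT2, an activator of integrins, read 1726, 1886 and 1704 against 664, 728 and 713 (-1.34 ± 0.08, adjusted p = 0.00041), and ITGB2 rose by 1.03 ± 0.16. Of 36 proteases and inhibitors 2 rose, 4 with the block and 1 without any single scramble array or shco4 replicate 2, and 6 fell, 3 without scramble replicate 2. PLAUR, the urokinase receptor, was among the latter (-0.86 ± 0.10).

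Growth factor and stress lists differed in their counts. Targets of YAP and TAZ had 8 of 21 lower (38.1%, against 11.5% of all genes) and 1 higher. The higher count was 3 with the block, 2 without shco4 replicate 3 and 0 without any of the other arrays. The lower count was 5, 4 and 5 without scramble replicate 1, scramble replicate 2 and shco4 replicate 2. ANKRD1 fell from 612, 674 and 618 to 185, 294 and 281 (-1.35 ± 0.21, adjusted p = 0.00657). WWTR1, which encodes TAZ itself, fell by 1.32 ± 0.33 at its brightest probe set (adjusted p = 0.0351). Its other probe sets fell by 0.65 and 0.57. The call at the brightest was lost without any single scramble array and without shco4 replicate 1 or 2. Receptor tyrosine kinases and EGF-like ligands had 4 of 49 higher (8.16%), 2 without scramble replicate 2 or 3, and 7 lower (14.3%). GAS6, the ligand of AXL, rose from 3807, 3749 and 3512 to 6076, 6456 and 6376 (0.77 ± 0.13, adjusted p = 0.00802), while AXL fell by 2.11 ± 0.11 and TYRO3 by 0.82 ± 0.14. FOSL1, an AP-1 factor downstream of MAP kinases, fell from 4348, 4643 and 4609 to 1367, 1685 and 2234 (-1.39 ± 0.19, adjusted p = 0.00468). Of its list of 29 genes 5 fell (17.2%), 8 with the block and 9 without shco4 replicate 3. In the same list 4 rose (13.8%), 1 or 2 without any single scramble array or without shco4 replicate 2 or 3.

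Among p53 targets 4 of 17 fell (23.5%, against 11.5% of all genes) and 2 rose (11.8%, against 10.7%). The higher count was 0 or 1 without any single array but shco4 replicate 2. DDB2, which senses ultraviolet damage, fell from 318, 311 and 296 to 91.8, 127 and 115 (-1.48 ± 0.13, adjusted p = 0.000973). In the BCL2 family and apoptosis genes 4 of 27 fell (14.8%) and 1 rose (3.7%). With the block 7 fell and 3 rose, and the higher count was 2 without shco4 replicate 3. APAF1, the scaffold of the apoptosome, fell by 1.56 ± 0.28 and CASP2 by 1.51 ± 0.15, while BCL2 rose by 0.64 ± 0.11. Metallothioneins and metal transporters had 3 of 16 lower (18.8%) and 0 higher, 1 with the block. The 3 lower genes encode zinc importers. SLC39A14 read 1595, 1765 and 1731 against 628, 741 and 757 (-1.26 ± 0.08, adjusted p = 0.000397), SLC39A6 fell by 1.07 ± 0.11 and SLC39A4 by 0.79 ± 0.11. Heat shock and chaperonin genes had 4 of 27 lower (14.8%) and 1 higher (3.7%). The lower count was 2 without scramble replicate 2 or shco4 replicate 1 or 2. The higher count was 5 with the block and 0 without scramble replicate 2 or 3 or shco4 replicate 1 or 3. HSPB1, a small heat shock protein, fell by 0.82 ± 0.14. NRF2 and glutathione genes had 4 of 32 higher (12.5%) and 5 lower (15.6%), 3 without scramble replicate 1. TXNRD1 was lower by 0.79 and GPX4 higher by 0.59. In each of the other 7 lists at most 4 genes were called in either direction. RNA interference genes had 3 of 10 higher (30%) and 2 lower (20%), and both counts were 0 without scramble replicate 1. Stem cell and breast line identity genes had 4 of 24 higher (16.7%), 3 to 5 with 1 array left out, and 2 lower (8.33%). Among the 7 lists, BMP and TGF-beta target genes had 5 lower with the block. Wnt and Notch pathway genes had 5 higher without shco4 replicate 3, with median centring or with quantile normalization. That count was 6 with dim probe sets left out.

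**Figure D5:**
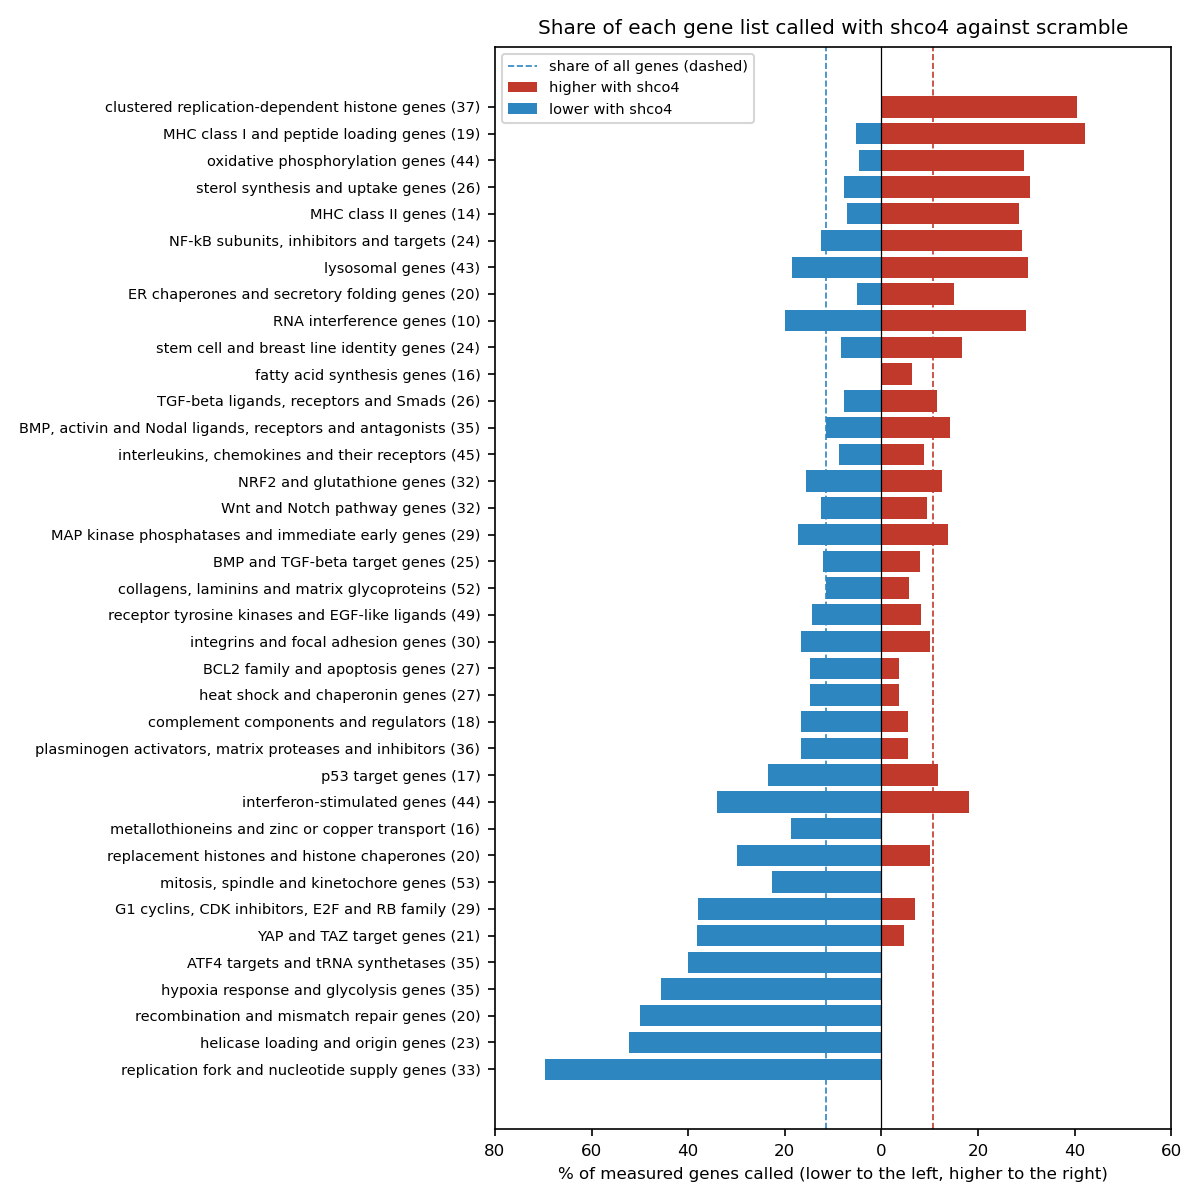
Bars give the percentage of each list's measured genes (number in parentheses) called lower (blue, to the left) or higher (red, to the right) with shco4 against scramble. Dashed lines mark the shares over all 11963 genes, 11.5% lower and 10.7% higher. Clustered histones reach 40.5% higher with 0 lower, and fork genes 69.7% lower with 0 higher.

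Markers of the line were read beside those of other cells. The summed intensity of 11 genes high in this line was 75057 to 78063 with scramble and 67707 to 70636 with shco4. Among 15 genes of luminal breast lines FOXA1 and PGR were at the floor on all 6 arrays, and the sum was 21287 to 23953 and 18258 to 19712. EPCAM, ERBB3 and MUC1 of that list were lower with shco4 and ESR1, the estrogen receptor gene, was higher (0.77 ± 0.20, adjusted p = 0.0439). ESR1 was dim, at 23.2 to 28.6 with scramble, and its call was lost with a floor of 64, with the replicate block (adjusted p = 0.0975) and without any single array except shco4 replicate 3. Of 20 leukocyte genes CD3G, LYZ, NKG7 and TYROBP were at the floor, and the sum was 2307 to 2422 with scramble and 1371 to 1416 with shco4. LAPTM5 was the lower member of that list, at 1814, 1824 and 1831 against 647, 826 and 809 (-1.27 ± 0.23). That gene alone made up most of the scramble sum, so the sum mainly follows it. CD4, CD79A and CD14 were higher, with no scramble array above 73. With a floor of 64 CD4 and CD79A were not called. CD14 was not called with the replicate block (adjusted p = 0.0855) or without any 1 of the 6 arrays (adjusted p = 0.0539 to 0.136). Of 12 fibroblast genes FAP and POSTN were at the floor and LUM was higher, and the sum was 810 to 828 and 871 to 1077. The part of other cells in these results was not tested.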

How the data were processed

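The study hybridised RNA of 9 samples of MDA-MB231 lines, 3 per hairpin, to Affymetrix expression arrays from 200 ng of RNA, per the labels' protocols. The authors deposited linear intensities for 22277 probe sets per array, with a trimmed mean of 500 on each (2% trimmed at either end, as found in the values). The summary software is not given in the sources used here. Leaving out 62 control probe sets left 22215. Of these 19064 have 1 gene symbol in the platform annotation, 1043 several and 2108 none, and no symbol needed updating.

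Intensities below 16 were raised to 16 before the log2 step. Group means of all 9 arrays were fitted with lmFit and eBayes in limma 3.58.1 (R 4.3.3), with Benjamini-Hochberg adjustment of p-values over all probe sets; 2611 probe sets had no spread. The trial on simulated data recovered 30.3%, 67.2% and 95.5% of probe sets changed by 0.5, 1 and 2 on the log2 scale. Changes were placed only in brighter probe sets, with independent normal noise, so recovery of dim ones was not measured. A gene in a list was read by its brightest probe set with 1 symbol. No set test was run. Tables and figures used Python 3.11.15, pandas 2.3.3 and matplotlib 3.10.9. The number of arrays and, for dim probe sets, the floor limit the precision.

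The rule for named genes took the 20 largest changes each way, 8 each way at the floor in 1 group, up to 6 called genes per list, pathway and control genes fixed by name, and 12 histones. Genes outside it, such as PCNA, TYMS, IFIT3, IFITM2, the probe sets without 1 symbol and histones not passing, were chosen after their values were seen. Members and lists were chosen with earlier results of these data known. Same-numbered arrays deviated together (r across probe sets 0.133 to 0.235, against -0.199 to -0.0431 for other pairs). Deviations were taken from each group's own mean, so these r values depend on one another. The numbers may therefore pair the samples, which the labels do not state. The main fit ignores any pairing, and a fit with the number as a block was an alternative. Others were leaving out each array, the 6 arrays alone, a floor of 64, log2 of the value plus 16, a filter on dim probe sets, median centring, quantile normalization and an intensity trend.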

Additional observations from a re-analysis of the deposited data

Results flagged for a closer look

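Of 273 probe sets named by rule, 257 of them called with shco4, 44 were called against scramble in opposite directions with the 2 hairpins. The rule took most probe sets for a call with shco4, and the share over all genes was not counted. A gene was listed only if it also differed between the lines by the limma test of that difference. That difference is part of the choice and not a further result. Both lines share the scramble arrays. The values below are shco4 minus shco2 on the log2 scale.

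Cell cycle, replication and histone genes included H2BC21 at 3.42, RGCC, a regulator of the cell cycle, at 3.80, CCNE2 at -2.64, CCNE1 at -2.03, CDK4 at -0.81, RFC4 at -2.05 and RFC5 at -1.32. The histone gene partners CASP8AP2, CHAF1B and NASP were at -1.74, -1.44 and -0.68. The repair genes PALB2, MSH6 and RAD54B were at -1.29, -1.04 and -1.43. The p53 targets CDKN1A, DDB2 and TP53I3 were at -1.32, -2.12 and -1.43, and PLK2 was at 0.89.

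Immune genes were CRTAM, a receptor of lymphocytes, at 4.59, CD74 at 2.07, HLA-DPB1 at 1.89, HLA-F at 1.75, TNFAIP2 at 1.58, CLU at 1.34, PSME1 at 1.12, RIGI at -1.32 and IL11 at -4.26. CRTAM was at the floor on all 3 shco2 arrays, so its value depends on the floor. The shco4 call of IL11 was lost without scramble replicate 1, scramble replicate 2, shco4 replicate 1 or shco4 replicate 3. The call of HLA-F was lost without scramble replicate 2, and that of HLA-DPB1 without scramble replicate 1 or 2 or shco4 replicate 1 or 2.

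Metabolic and transport genes were SREBF2 at 2.00, ELOVL5 at 0.73, NPC2 at 0.71, COX4I1 at 0.72, NDUFC1 at -2.16, SGSH at -1.90 and the zinc importers SLC39A14 and SLC39A6 at -1.60 and -1.62. Matrix and adhesion genes were AGRN at 1.85, TNS3 at 2.00, CD44, the hyaluronan receptor, at 0.88 and PLAUR at -1.60. The rest were OR7E37P, an olfactory receptor pseudogene, at -2.97, the chaperones HSPH1 and CCT6A at -1.11 and -0.65, DIABLO at -0.75, TARBP2 at -1.29 and PDIA6 at 0.29. The shco4 calls of PLK2, TARBP2, CCT6A and PDIA6 were lost without scramble replicate 1, scramble replicate 2 or shco4 replicate 1. TARBP2 and PDIA6 also lost theirs without scramble replicate 3, CCT6A without shco4 replicate 2 or 3, and PDIA6 without shco4 replicate 3 or with the replicate block (adjusted p = 0.0552). With 3 arrays a group, single arrays could not be tested as outliers.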

How the results depend on the processing

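No called probe set among those named by rule changed sign under any alternative run, and signs of uncalled ones were not checked. Probe sets called higher numbered 2011, and 1246 to 1679 with 1 array left out, the lowest without scramble replicate 2; probe sets called lower numbered 2167, and 1514 to 1895. In the fit with a replicate block the counts were 2406 and 2507. Of 273 probe sets named by rule, 257 kept their side of the threshold under that block, 13 lost their call and 3 gained one. A floor of 64 ended 33 of these calls and the fit to the 6 arrays alone 38. Lower mitotic genes numbered 12 with all arrays, 21 with dim probe sets left out, 2 with the 6 arrays alone and 2 to 12 with 1 array left out. Lower helicase and origin genes numbered 12, 7 with the 6 arrays alone and 7 to 11 with 1 array left out. Higher interferon-stimulated genes numbered 8, 4 with the 6 arrays alone and 5 to 6 with 1 array left out. Causes of these changes were not tested. With a floor of 64 higher histone genes numbered 11, against 15. Higher MHC class II genes stayed at 4 with that floor, and lower ones numbered 0, against 1.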
